A study of Mus musculus with 2 samples.

Results

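The regions described here are the distal intergenic peaks of an ATAC-seq comparison of mouse cardiac fibroblasts, meaning open chromatin regions that lie between genes and away from the start of any of them. They were taken as the rows of the deposited peak table whose annotation begins with "Distal Intergenic" and that lie on a numbered chromosome or on X. This gave 19401 of the 63316 peaks, or 30.6%. Another 29 rows with this annotation, 5 on Y and 24 on an unplaced scaffold, were left out. Both libraries were made from primary cardiac fibroblasts of heart that had been treated with TGF-β, the cytokine that turns fibroblasts into contractile, matrix-producing myofibroblasts. The label of the NC library names TGF-β alone, and that of the SiPiezo2 library names TGF-β with siRNA against Piezo2, which encodes a stretch-activated cation channel. The paper describes the control cells of its ATAC-seq as given a scrambled siRNA before TGF-β. Each condition is a single library. No difference has a replicate check, no test between conditions was possible, and every interval given is a 95% exact binomial interval that covers counting error only. The description of the series names a Cre knockout of Tet3 in place of the siRNA, and the groups used here follow the sample labels.

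Most enhancers, the elements that raise transcription of a gene from a distance, lie outside promoters, and open chromatin is how they are usually found. They tend to be open in fewer cell types than promoters are, and in fibroblasts they carry binding sites for factors that respond to TGF-β and to mechanical load, such as SMAD, AP-1, TEAD and SRF. An intergenic peak does not by itself show an enhancer, and the nearest gene given for each peak is the closest transcription start site, not a tested target. In bulk chromatin, a lower signal from the same cells and fewer cells with the open site cannot be told apart.

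The table gives 1 normalized read density per library and peak, in reads per 1000 bp of a window of 2000 bp. The authors' normalization fits a line to the log2 ratios as a function of mean density and subtracts it. The reads behind the densities came out as whole numbers for 100% of the peaks, so read numbers are given beside the densities. The windows of all peaks held 4615335 reads in NC and 2754046 in SiPiezo2, a ratio of 0.597, and those of the distal peaks 1248845 and 749668, a ratio of 0.600. Of the marker genes checked, 9 of 9 fibroblast genes had a peak, against 4 of 8 cardiomyocyte, 6 of 7 endothelial, 3 of 6 macrophage, 6 of 6 pericyte and 2 of 4 lymphocyte genes. Summed densities over all peaks of those lists were 2835 in NC and 2282 in SiPiezo2 for fibroblast genes, 1045 and 1043 for endothelial, 540 and 470 for pericyte, 366 and 330 for cardiomyocyte, 270 and 181 for macrophage, and 80.3 and 76.2 for lymphocyte genes. The cardiomyocyte genes Myh6, Myh7, Tnni3 and Actc1 and the macrophage genes Cd68, Lyz2 and C1qa had no peak.

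Distal peaks were narrower and weaker than promoter peaks. Their median width was 290 bp against 360 bp for peaks annotated as promoter within 1 kb of a start, and their median density was 21.6 in NC and 19.4 in SiPiezo2, against 34.5 and 33.1. A median distal peak rested on 50 reads in NC and 32 in SiPiezo2. Only 26.9% of the distal peaks (5214) had been called in both libraries, while 70.6% (13699) were called in NC only and 2.52% (488) in SiPiezo2 only. The corresponding shares at promoters were 60.4%, 38.1% and 1.55%. Peaks of the first intron, with 28.8% called in both, and of later introns, with 26.2%, were close to the distal peaks in this respect. The NC library had more reads, and the part of depth in these calls was not tested. A peak called in NC only entered the table through the library where it was high, so its ratio is described and supports no comparison.

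On the authors' normalized densities, distal peaks were lower in SiPiezo2 at the median. The log2 ratio, taken throughout as log2 of (SiPiezo2 + 1) over (NC + 1), had a median of -0.18, with the middle 50% of the peaks between -0.46 and 0.099. It was below 0 at 66.4% of the peaks. The ratio was below 0.66 at 3224 distal peaks (16.6%), where the share over all peaks of the table was 13.5%. It was above 1.5 at 765 (3.94%), against 3.21% over all peaks. Of the 3224 low peaks 2804 had been called in NC only, and of the 765 high peaks 299 in SiPiezo2 only. Among distal peaks called in both libraries, 8.06% were below 0.66 and 5.89% above 1.5, and the median was -0.029. Promoter peaks had a median of -0.030, with 5.86% below 0.66 and 1.98% above 1.5. The first intron, with a median of -0.15, and later introns, with -0.17, lay next to the distal class.

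**Figure D1:**
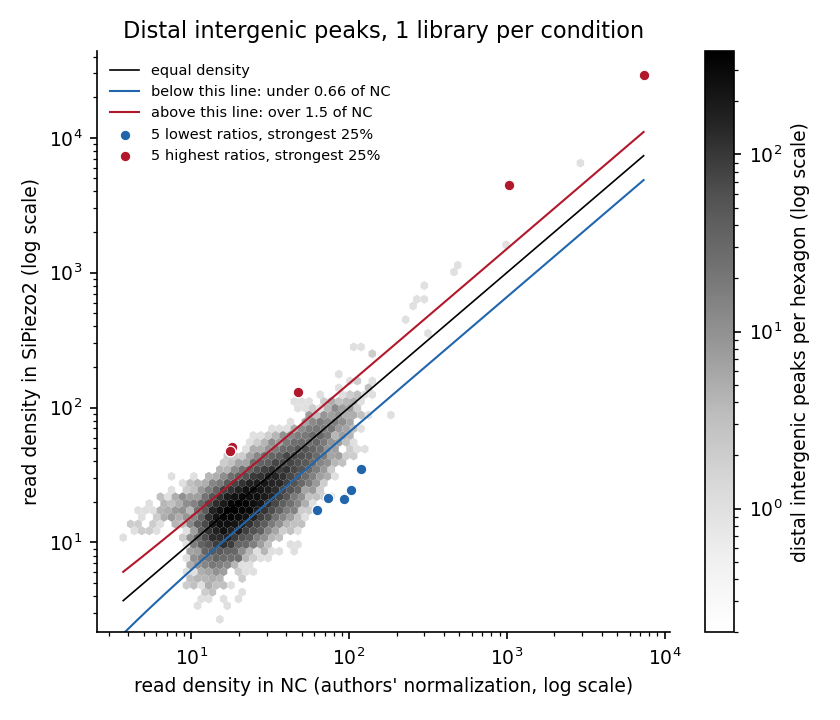
Read density of every distal intergenic peak in NC (x axis) and SiPiezo2 (y axis), both in reads per 1000 bp after the authors' normalization and on log scales, with the number of peaks per hexagon as grey level. The cloud sits below the line of equal density, 3224 peaks fall under the blue line at 0.66 and 765 lie over the red line at 1.5. Filled points mark the 5 lowest and the 5 highest ratios among the strongest 25% of the peaks, and the 2 red points at far right are the windows on chromosome 2 described in the text.

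The size of the overall shift depended on the scaling, and its direction did too. With the recovered reads scaled to the same total in both libraries, the median over distal peaks was 0.018, and 1733 peaks were below 0.66 while 1810 were above 1.5. The shares over all peaks on that scale were 7.28% and 7.78%. The distance between the distal and the promoter median, -0.15 on the deposited densities, was -0.031 with the reads at the same total. Counts of peaks below 0, given for genes and lists on the deposited densities, are therefore set against the 66.4% found over all distal peaks.

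Among peaks called in both libraries, the shares of low ratios at distal and promoter sites were farthest apart at the strong end of the range, although no test of this difference is possible with single libraries. In the top 25% of all peaks by mean density, 10.4% of 2248 distal peaks were below 0.66, against 1.55% of 4055 promoter peaks. With reads at the same total these peaks numbered 211 (9.39%) and 61. In the weakest 25%, 8 of 231 distal peaks and 2 of 33 promoter peaks were below 0.66, too few to order the classes. Of the strong peaks called in both, 9.23% in later introns and 6.30% in first introns were below 0.66. Peaks above 1.5 made up 5.03% of the strong distal peaks called in both and 1.63% of such promoter peaks.

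**Figure D2:**
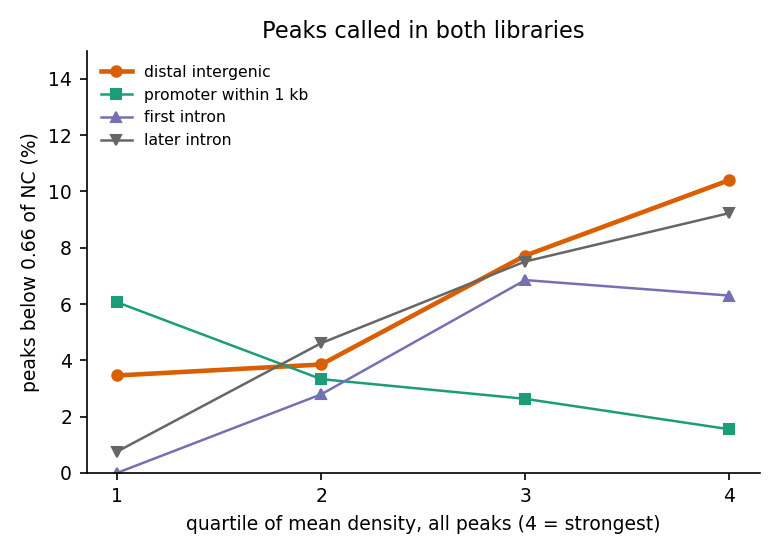
Share of peaks below 0.66 of NC (y axis, %) by quartile of mean density over all peaks of the table (x axis), for peaks called in both libraries. Lines stand for the annotation classes. In the strongest quartile the distal line reaches 10.4%, where promoters are at 1.55%.

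The median log2 ratio varied little with distance from a transcription start site, while the share of peaks past either threshold was larger far from one. The distal peaks lay at a median of 26.2 kb from the nearest start, with the middle 50% between 11.4 and 61.8 kb and 2932 peaks (15.1%) over 100 kb away. The median log2 ratio was -0.12 in the 525 peaks within 3 kb of a start and -0.17 in the 3644 between 3 and 10 kb. It was -0.18 in the 2983 between 50 and 100 kb and -0.20 in the 197 beyond 500 kb. The share below 0.66 was 14.3% within 3 kb, 15.9% between 3 and 10 kb and 21.3% beyond 500 kb. The share above 1.5 was 4.76%, 2.88% and 9.64% in the same groups, and the share called in SiPiezo2 only was 2.86%, 1.87% and 8.12%. Of all distal peaks called in SiPiezo2 only, 61.3% were above 1.5. The density was lower far from a start, with a median in NC of 24.8 within 3 kb and 16.8 beyond 500 kb. The share called in both libraries was 30.9% within 3 kb, 20.7% between 250 and 500 kb and 24.9% beyond 500 kb. Within peaks called in both libraries the medians of all distance groups lay between -0.040 and -0.0056. Peaks upstream of the nearest start, 60.1% of the total, had a median of -0.18, and those downstream -0.17. The 31.4% of peaks whose nearest gene is a long intergenic RNA had a median of -0.17, and the 55.6% next to protein-coding genes -0.18.

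**Figure D3:**
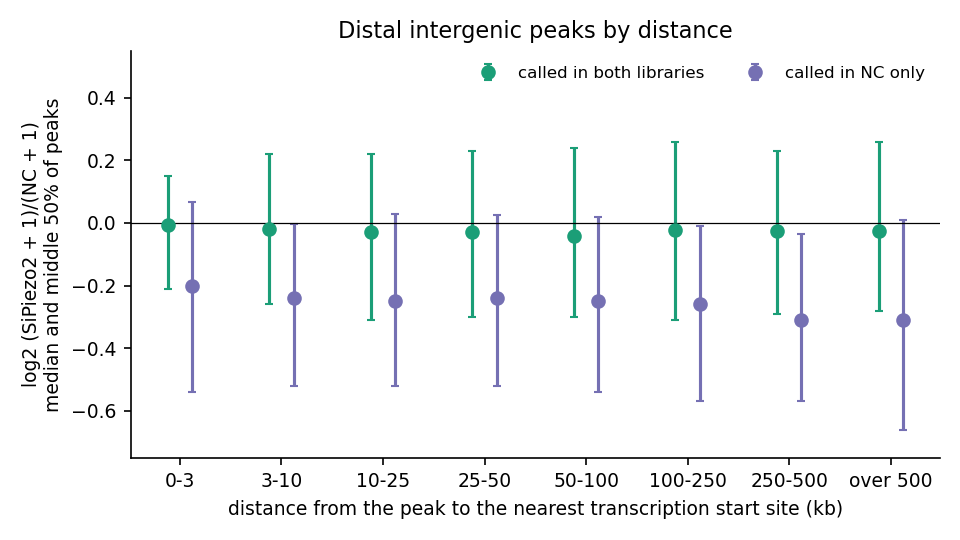
Median log2 ratio of SiPiezo2 to NC (points) and the middle 50% of distal intergenic peaks (bars) by distance to the nearest transcription start site in kb. Peaks called in both libraries stay between -0.040 and -0.0056 at every distance, and peaks called in NC only lie between -0.31 and -0.20.

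All 20 chromosomes had a median below 0 on the deposited densities. The numbered chromosomes ranged from -0.23 on chromosome 3 to -0.13 on chromosome 14, and X stood at -0.27 over 368 peaks. Neighbouring distal peaks were only weakly correlated. The log2 ratios of a peak and the next one 2 to 10 kb away had a Pearson r of 0.14 and a Spearman rho of 0.12 over 3886 pairs. At 10 to 50 kb r was 0.078 over 6253 pairs, and at 50 to 200 kb it was 0.046 over 4587. These correlations are descriptions across sites of the same pair of libraries, and values this weak in sparse counts are not evidence of a relation or of its absence.

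The strongest 25% of the distal peaks had a mean density of 27.0 or more. The lowest ratio among them was at chr3:19460432-19461018, 95.2 kb upstream of Pde7a, a cAMP phosphodiesterase gene, with 236 reads in NC and 32 in SiPiezo2 and a log2 ratio of -2.09 (-2.76 to -1.64). Both other peaks within 5 kb of it were low as well, at -1.57 and -1.75, with windows that partly overlap. Next was chr11:94846030-94846284, which lies 2.16 kb past the 3′ end of Col1a1, the gene of the α1 chain of type I collagen. It held 265 reads in NC and 37 in SiPiezo2, for a log2 ratio of -2.03 (-2.64 to -1.61). The next distal peak along that chromosome, centred 2.75 kb away, is assigned to Hils1 rather than to Col1a1 and had a log2 ratio of -1.46.

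The other 3 of the 5 lowest among these strong peaks lay near Ccdc80, Ccn2 and Ccn5, which encode secreted proteins. These 3 and the Col1a1 peak were called in NC only. The peak at chr16:44891802-44892152, 22.0 kb upstream of Ccdc80, held 156 and 27 reads with a log2 ratio of -1.80 (-2.55 to -1.30), and a peak with an overlapping window 0.969 kb away stood at -0.72. The peak at chr10:24475301-24475667 held 316 and 52 reads with a log2 ratio of -1.75 (-2.26 to -1.38). The table gives the noncoding gene Gm15270 as its nearest start, but the promoter peak of Ccn2, the connective tissue growth factor gene, is centred 3.92 kb away. That promoter peak had a log2 ratio of -0.49, an intronic Ccn2 peak at 2.95 kb had -0.81 and the promoter peak of Gm15270 at 1.92 kb had -1.26. The peak at chr2:163651484-163652059, 11.0 kb upstream of Ccn5, held 186 and 33 reads with a log2 ratio of -1.74 (-2.40 to -1.28). With reads at the same total the ratios of the 5 peaks lay between -2.09 and -1.70.

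The 2 highest ratios among strong distal peaks on the deposited densities came from very deep windows. A pair of windows at chr2:98492629-98493233 and chr2:98496544-98497740, over 690 kb from the nearest start, went from densities of 1028 and 7364 in NC to 4458 and 29467 in SiPiezo2, and the log2 ratio of the first was 2.11. They held 3674 and 31118 reads in NC and 4988 and 27890 in SiPiezo2, so with reads at the same total the ratios were 1.19 and 0.59. In all, 12 distal windows held 1000 or more reads in the libraries together, on chromosomes 2, 9, 11, 14 and 17. They took 4.63% of the distal reads in NC and 6.47% in SiPiezo2. All 12 were higher in SiPiezo2 on the deposited densities, from 0.20 to 2.11, and 11 were above 1.5. With reads at the same total they ranged from -0.27 to 1.19 and 6 were above 1.5. The widest peak of the series, 3480 bp at chr17:40154106-40157586, went from 1.09 to -0.017 with that change of scale.

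The other 3 of the 5 highest were ordinary in depth. With reads at the same total they stood between 1.34 and 1.59, above both windows on chromosome 2. The peak at chr10:3062748-3063048, 6.94 kb upstream of the noncoding gene 9230019H11Rik, held 126 reads in NC and 193 in SiPiezo2, with a log2 ratio of 1.44 (1.13 to 1.80). All 3 other distal peaks within 5 kb of it were higher too, at 1.21, 1.23 and 1.27, and the window of the first of these, 0.882 kb away, overlaps that of the named peak. A peak 164 kb from 2610035D17Rik, at chr11:112899363-112899786, held 44 and 82 reads (1.44, 0.96 to 2.07). A peak 15.7 kb upstream of Wfdc21, a whey acidic protein domain gene, at chr11:83621880-83622288, held 42 and 76 reads (1.38, 0.89 to 2.03), and a distal peak next to it stood at 0.065 (-0.56 to 0.66). The 5 peaks farthest from any start lay 1303 to 1798 kb away on chromosomes 1 and 3, held 13 to 58 reads in NC, and all but 1 of them had intervals that include 0. The exception, at chr1:103126057-103126283, was called in SiPiezo2 only and held 13 reads in NC and 28 in SiPiezo2, with a log2 ratio of 1.25.

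The distal peaks were nearest to 8685 genes, of which 4300 had a single one and 859 had 5 or more. The most were found at Irs1, the insulin receptor substrate gene, with 20, followed by Gm56875 with 18 and by Rbbp8, Slit2 and Tbx18 with 17 each, and 8 further genes had 16. Summed over their peaks, these last 8 had log2 ratios from -0.53 at the unnamed gene ENSMUSG00000121765 to 0.052 at Gata6, with -0.32 at Tm4sf1, a tetraspanin-like membrane protein gene, and -0.28 at Tns3, the tensin-3 gene of focal adhesions. Single peaks of these clusters rest on few reads, and their ranges include counting error. At Irs1 the 20 peaks ranged from -1.32 to 0.19, and at Tbx18, a transcription factor gene of the epicardial lineage, the 17 peaks ranged from -0.75 to 0.77 with 5 below 0.66 and 2 above 1.5. The 16 peaks of Gata6, a cardiac transcription factor gene, ranged from -0.72 to 0.53, and their reads summed to 982 and 671. The densest windows of 1 Mb held 50 distal peaks on chromosome 13 between 52 and 53 Mb, with a median of 0.0012, and 44 on chromosome 2 between 167 and 168 Mb, with 0.020. Next came 41 on chromosome 8 between 122 and 123 Mb, with -0.16, and 36 on chromosome 18 between 11 and 12 Mb, with -0.12. The window from 45 to 46 Mb of chromosome 1, which holds Col3a1 and Col5a2, had 35 peaks with a median of -0.31, and one on chromosome 16 between 92 and 93 Mb also had 35, with -0.20. In the order given, the 6 windows had 5, 6, 7, 4, 10 and 10 peaks below 0.66 and 3, 6, 0, 0, 0 and 1 above 1.5. The shares over all distal peaks were 16.6% and 3.94%.

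Over the 859 genes with 5 or more distal peaks, the log2 ratio of the summed densities had a median of -0.19, and 696 genes were below 0. Such sums count some reads more than once where windows overlap, so for a gene with overlapping windows the interval is given over the windows that do not overlap one already counted, called separate windows. The ratio was below 0.66 in 40 genes (4.66%) and above 1.5 in 5 (0.582%). The genes at both ends were chosen for their distal values, so a promoter value nearer to 0 follows in part from the choice and is given as a description. Vegfc, a growth factor gene for lymphatic vessels, had all of its 6 distal peaks below 0.66. They lay 42.7 to 198 kb from its start and summed to 365 reads in NC and 119 in SiPiezo2, with a log2 ratio of -1.05, and -1.03 (-1.38 to -0.71) over 5 separate windows. All but 1 of these 6 peaks were called in NC only. The promoter peak of Vegfc stood at 0.087 (-0.54 to 0.68). Actn1, which encodes the actin crosslinker α-actinin-1, had 5 of 6 distal peaks below 0.66, 4 of them called in NC only, and a summed ratio of -0.80, or -0.69 (-1.01 to -0.40) over 4 separate windows, while its promoter peak stood at -0.078 (-0.39 to 0.22). Ccdc80 stood at -0.79, or -0.59 over separate windows, and the noncoding genes 1700054K19Rik and 4933400L20Rik at -1.10 and -0.80. For 1700054K19Rik the value was -0.76 when only separate windows were counted.

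At the other end, all 8 distal peaks of B4galt5, a galactosyltransferase gene, were above 0 and 5 were above 1.5. Their reads summed to 616 in NC and 609 in SiPiezo2, a log2 ratio of 0.67 and the same over 7 separate windows (0.49 to 0.84), and the promoter peak stood at 0.33 (-0.064 to 0.72). Trim24, a chromatin-binding cofactor gene, had 3 of 8 above 1.5 and a summed ratio of 0.61 (0.38 to 0.85) with a promoter peak at -0.43. Gm49504 stood at 0.80, and at 0.76 (0.46 to 1.08) over 4 separate windows. The remaining 2, 4930433N12Rik and Gm48099 at 1.10 and 1.08, include the very deep windows on chromosomes 9 and 14 and stood at 0.58 and 0.59 with reads at the same total.

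The collagen genes of the myofibroblast were among those with many distal peaks, and most of these peaks were lower in SiPiezo2. Col1a1 (ENSMUSG00000001506) had 14, of which 13 were below 0 and 7 below 0.66, and 6 of these 7 were called in NC only. Summed reads were 1845 in NC and 745 in SiPiezo2, a log2 ratio of -0.57. Over the 9 separate windows it was -0.67 (-0.84 to -0.52). The peaks called in both libraries stood at -0.86, -0.28, -0.11, -0.033 and 0.34, and of these only the first was below 0.66. The lower peaks sat in separate stretches. A group of 5 lay 53.4 to 63.1 kb upstream with log2 ratios between -1.26 and -0.83, 1 lay 2.43 kb upstream with -0.82, and 1 was the peak past the 3′ end described above. Between them, 6 peaks from 22.3 to 7.26 kb upstream had ratios between -0.28 and 0.34, including a pair with overlapping windows that held 266 and 265 reads in NC and 139 and 118 in SiPiezo2. The start of Col1a1 itself is marked by peaks that the table places in the 5′ UTR and in intron 1, which summed to -0.44.

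Col1a2 (ENSMUSG00000029661), the gene of the α2 chain, also had its lowest values on the 3′ side. All 3 distal peaks past its 3′ end, 0.917, 1.89 and 16.2 kb from it, were below 0.66 and called in NC only. The 1st held 83 reads in NC and 22 in SiPiezo2 (-1.28), the 2nd 70 and 20 (-1.20), and the 3rd 64 and 14 (-1.57). The 10 upstream peaks, 14.7 to 167 kb from the start, had log2 ratios between -0.62 and 0.056. Over all 13 peaks the sum was 1103 reads in NC and 524 in SiPiezo2 (-0.43, and -0.51 over 8 separate windows, -0.74 to -0.29), next to -0.37 at the peaks within 1 kb of its starts. At Col3a1 (ENSMUSG00000026043), of type III collagen, 11 of 13 were below 0 with a sum of -0.35 (-0.54 to -0.17), and 11 of 13 were called in NC only. The 2 called in both libraries stood at -0.0086 and 0.31. Its lowest peak, 13.7 kb past the 3′ end, had 58 reads in NC and 10 in SiPiezo2 (-1.88), whereas the peaks 6.21 and 9.51 kb past the end stood at 0.31 and -0.43. The distance the table gives for these 3′ peaks is to the start of a transcript inside each gene.

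**Figure D4:**
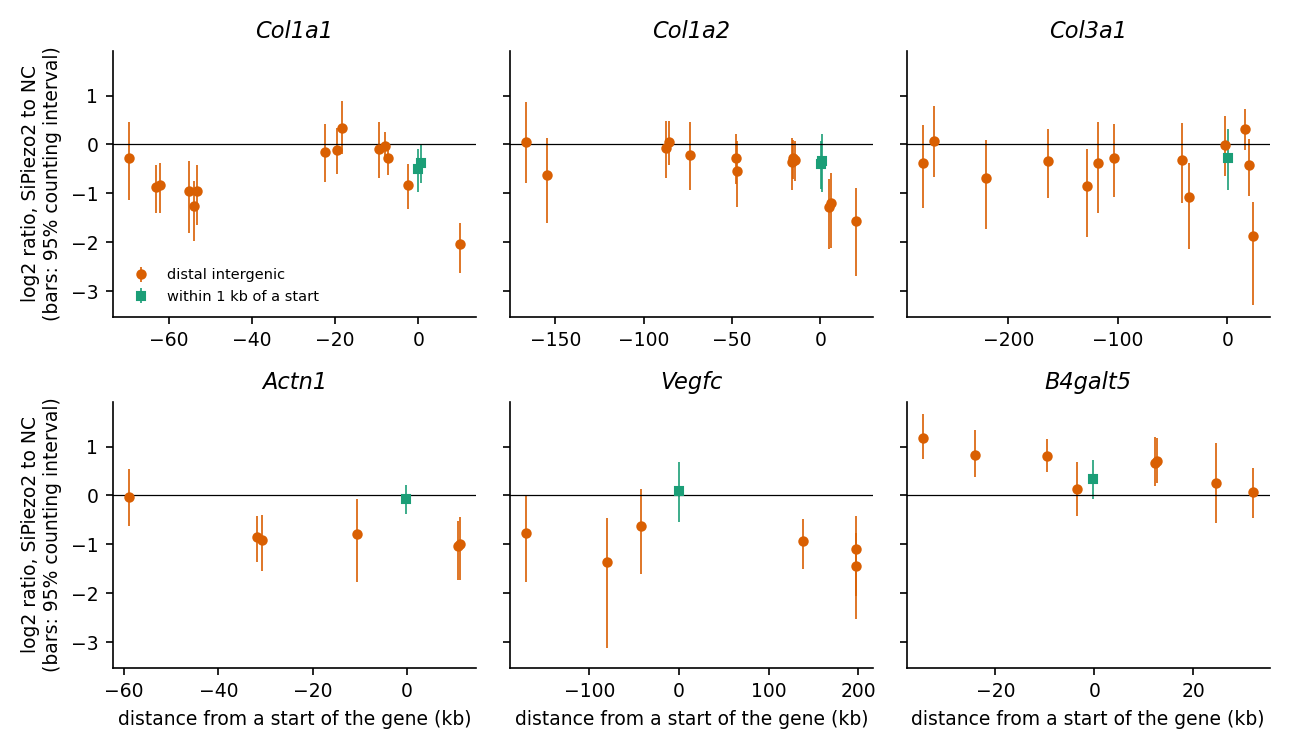
Log2 ratio of SiPiezo2 to NC (y axis) of each distal intergenic peak (circles) and of each peak within 1 kb of a start (squares) of 6 genes, by signed distance in kb from the nearest start of that gene (x axis, negative upstream). Bars are 95% counting intervals. The lowest peak of Col1a1 (-2.03), Col1a2 (-1.57) and Col3a1 (-1.88) lies on the downstream side, Actn1, Vegfc and B4galt5 were chosen for their summed distal values, which are low in the first 2 and high in the last.

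Other myofibroblast genes had few distal peaks. Acta2, the smooth muscle actin gene that marks myofibroblasts, had 1, at 10.3 kb upstream (chr19:34242977-34243510), with 107 reads in NC and 32 in SiPiezo2 and a log2 ratio of -1.07 (-1.76 to -0.56). Its start peak, with 265 and 53 reads, stood at -1.50, and both peaks were called in NC only. Postn, the periostin gene, had 3, with 242 reads in NC and 121 in SiPiezo2 (-0.37, -0.70 to -0.053), and a promoter peak at -0.49. Smad3, which encodes a transducer of TGF-β, had 4 distal peaks upstream with log2 ratios between -0.25 and 0.098. Piezo2, the gene targeted by the siRNA, had a single distal peak 5.01 kb upstream (chr18:63525120-63525416), with 59 and 28 reads (-0.51, -1.27 to 0.11), and a start peak with 77 and 26 (-0.95, -1.73 to -0.37). An siRNA acts on the transcript, so neither peak, both called in NC only, checks the knockdown. Timp1, Lox, Ccn2, Tet3, Srf, Tead1, Wwtr1, Yap1 and Spi1 were the nearest gene of no distal peak.

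Over whole lists, the 46 distal peaks at 7 of 16 myofibroblast markers had a median of -0.35, with 41 below 0 (89.1%), 16 below 0.66 (34.8%) and none above 1.5, next to 66.4%, 16.6% and 3.94% over all distal peaks. Of these peaks 14 belonged to Col1a1, 13 to Col1a2 and 13 to Col3a1. Most of the 46 (34) were called in NC only, and among the 12 called in both libraries 1 was below 0.66 (8.33%), close to the 8.06% over all distal peaks called in both, with a median of -0.080 against -0.029. The 34 peaks at 13 of 31 genes of the actin cytoskeleton had a median of -0.49, with 12 below 0.66 (35.3%) and 1, at the desmin gene Des, above 1.5. Among the 14 of these called in both libraries, 5 were below 0.66 (35.7%). Besides Actn1, the nonmuscle myosin gene Myh9 stood at -0.69 (-0.96 to -0.44) over 5 peaks, 4 of them called in NC only, and its promoter peak at -0.057. Vcl, the vinculin gene of focal adhesions, stood at -0.30, or -0.18 (-0.49 to 0.11) over 4 separate windows, and Enah, of an actin-binding protein, at -0.061 (-0.32 to 0.19). The 108 peaks at 27 of 40 other matrix genes had a median of -0.28, with 26 below 0.66 (24.1%) and 5 above 1.5, and among the 41 called in both 6 were below 0.66 (14.6%). Dcn, the decorin gene, had 13 of them with 5 below 0.66 and a sum of -0.50, or -0.39 (-0.60 to -0.17) over 9 separate windows. Those 5 were called in NC only, and the 3 called in both stood at -0.13, -0.042 and -0.41. The promoter peak of Dcn, called in both, stood at 0.61 (0.13 to 1.13). Thbs2, of thrombospondin-2, had 14 with a sum of -0.080, or -0.035 (-0.21 to 0.14) over 12 separate windows.

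The 25 peaks at 11 of 25 genes of the SRF, MRTF, TEAD and YAP axis had a median of -0.33, with 8 below 0.66 (32.0%, against 16.6% over all distal peaks) and none above 1.5, but with only 15 of 25 below 0. Among the 10 called in both, 3 were below 0.66. Of the 8, 4 belonged to Vgll3, a TEAD cofactor gene, whose 5 peaks, 3 of them called in NC only, summed to -0.77 (-1.08 to -0.48) while its promoter peak stood at 0.18 (-0.13 to 0.49). The other genes of this list with the most reads were Egr1, an early response gene, at -0.17 over 4 peaks, Ankrd1, a target of YAP, at -0.19 over 3, or -0.38 (-0.72 to -0.058) over 2 separate windows, and Nuak2, a kinase gene, at -0.59 (-0.94 to -0.25) over 2. The 30 peaks at 14 of 30 TGF-β signalling genes had a median of -0.21 with 4 below 0.66 on either scale (13.3%), under the share over all distal peaks on the deposited densities (16.6%) and over it with reads at the same total (8.93%). The 56 peaks at 13 of 33 fibroblast and mesenchymal transcription factor genes had a median of -0.12, and 12 of them were below 0.66 on the deposited densities (21.4%) but 3 with reads at the same total (5.36%), where the shares over all distal peaks were 16.6% and 8.93%. Both distal peaks of Zeb2, a factor of the mesenchymal transition, were below 0.66 in overlapping windows, with a sum of -0.77 and a single separate window at -0.74 (-1.31 to -0.24). The 4 peaks of Sox4, another factor of mesenchymal cells, summed to 0.25, or 0.12 (-0.20 to 0.45) over 3 separate windows.

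The remaining lists rested on few peaks. Among peaks called in both libraries, a choice made after seeing the data for all lists, 2 of 7 at mechanosensors were below 0.66, 0 of 8 at TGF-β signalling genes, 1 of 17 at transcription factor genes and 0 of 2 at AP-1 genes. The 21 peaks at 9 of 13 mechanosensor and TET genes had a median of -0.33 with 3 below 0.66 (14.3%), of which 2 lay at the integrin gene Itgb1. Its 7 distal peaks, 5 of them called in NC only, were all below 0 and summed to 789 reads in NC and 318 in SiPiezo2 (-0.61, and -0.71 over 5 separate windows, -0.95 to -0.48). The AP-1 genes had 11 distal peaks with 2 below 0.66 (18.2%), so neither share was far from the 16.6% over all distal peaks. The pair at Fos has overlapping windows and stood at -0.22 (-0.61 to 0.16) over the separate one. The 8 peaks at 5 of 25 housekeeping genes had a median of -0.27, with all 8 below 0 and 2 below 0.66. With reads at the same total the list medians were -0.23 for myofibroblast markers, -0.29 for actin genes, -0.16 for the SRF and TEAD axis, -0.12 for matrix genes and -0.11 for housekeeping genes, against 0.018 over all distal peaks. Markers of other cells were among the low values as well. All 3 distal peaks of the endothelial gene Emcn, whose windows overlap, were below 0.66, with -1.06 (-1.71 to -0.51) at the single separate window, and so were 2 of 3 at the macrophage gene Csf1r, with -0.78 (-1.17 to -0.42) over 2 separate windows. The 15 distal peaks of 6 endothelial genes had a median of -0.13, with 5 below 0.66 (33.3%, against 16.6% over all distal peaks). The 5 peaks of macrophage genes had a median of -0.61 with 3 below 0.66, and the 6 of cardiomyocyte genes -0.14 with 1. The 6 of pericyte genes had a median of 0.12 and the single one of a lymphocyte gene stood at -0.30, with none below 0.66. The 46 peaks at fibroblast markers, which share Col1a1 and Col1a2 with the myofibroblast list, had a median of -0.29 with 16 below 0.66 (34.8%). The part of such cells in these results was not tested.

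**Figure D5:**
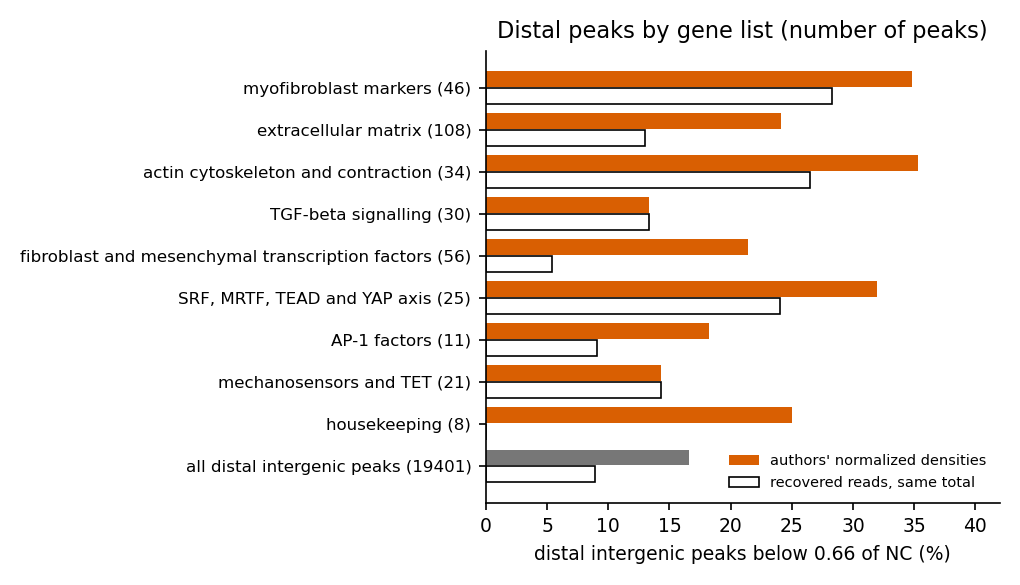
Share of distal intergenic peaks below 0.66 of NC (x axis, %) for each gene list except the cell type markers, with the number of peaks in parentheses. Filled bars use the authors' normalized densities and open bars the recovered reads at the same total. Of the marker lists, not drawn, fibroblast genes had 34.8% and 30.4% on these scales and endothelial genes 33.3% and 33.3%. Macrophage genes had 60.0% and 40.0% of 5 peaks, cardiomyocyte genes 16.7% and 16.7%, and pericyte and lymphocyte genes 0 on both. Myofibroblast markers (34.8% and 28.3%) and actin genes (35.3% and 26.5%) lie above all distal peaks (16.6% and 8.93%) on both scales, but among peaks called in both libraries, not drawn, the first share is 1 of 12, and for housekeeping genes 2 of 8 peaks are below 0.66 on the first scale and 0 on the second.

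For the genes that had both, the distal and the promoter value were weakly correlated. Across 2604 genes with at least 1 distal and 1 promoter peak, the log2 ratios of the summed densities had a Pearson r of 0.087 and a Spearman rho of 0.073. In the 311 genes with 200 or more reads in each kind, r was 0.17 and rho 0.12. The median of those 311 was -0.15 at distal peaks and 0.056 at promoters, and the distal value was the lower one in 211 genes (67.8%). With reads at the same total the medians of these genes were -0.072 and 0.027 and the distal value was lower in 175 (56.3%). With only peaks called in both libraries, it was lower in 66 of 127 genes (52.0%), so the size of the gap depended on the scale and on the calls. Both alternatives were chosen after seeing the data. Counting any peak within 1 kb of a start as the promoter, which takes in the collagen genes and was chosen after seeing the data, gave r of 0.079 and rho of 0.065 over 3719 genes, and r of 0.19 and rho of 0.14 over the 485 with 200 or more reads in each. These are descriptions across genes within a single pair of libraries.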

How the data were processed

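ATAC-seq libraries of 2 conditions, NC and SiPiezo2, were compared, with 1 library each. The labels name BWA 0.7.12 and mm10, but gene coordinates in the table are of GRCm39: of 20020 genes, 278 (1.39%) start where GRCm38 has them. Positions are as the table gives them. The genome used here is GRCm38, so no sequence was read and motifs were not searched. Per the file headers, the deposited signal is a read density for each library, after normalization by the authors. Their log2 ratio and p-value columns were not used. Whole reads in 2000 bp windows were recovered within a tolerance of 0.05 from the densities and the fit (intercept -0.25, slope 0.17 per log2 unit), and gave the 95% Clopper-Pearson intervals. Ratios used a pseudocount of 1. The 2 thresholds were 0.66 and 1.5. Distances and nearest genes are the table's. Of 8685 nearest genes, 5445 were named by the table, 2953 by GENCODE and 287 not at all.

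Peaks named were the 5 lowest and 5 highest ratios among the strongest 25%, the 5 with the highest density, and the 5 farthest from a start. Genes named were the 10 with the most distal peaks (ties kept), the 5 lowest and 5 highest with 5 or more, up to 4 per list by reads, and markers the study names. A gene that this rule selects is not reported here. Members and lists were chosen with earlier results of these data known. Desmin and the peaks beside named ones were picked out after their values were seen. The series description (Tet3 knockout), tissue and kit differ between sources, and the labels were followed. The scripts were tested on simulated data. Tables were handled with pandas 2.3.3 and numpy 2.4.6 in Python 3.11.15. Intervals came from scipy 1.17.1. Figures were drawn with matplotlib 3.10.9.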

Additional observations from a re-analysis of the deposited data

How the results depend on the processing

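The median over distal peaks (-0.18) was -0.18 with a pseudocount of 0.1, -0.092 with densities at the same total, -0.043 with median-of-ratios scaling, 0.018 with reads at the same total and -0.69 with unscaled reads. It was -0.15 in peaks above the median density, -0.029 in peaks called in both libraries and -0.17 in separate windows. Peaks below 0.66 (3224) and above 1.5 (765) numbered 2050 and 1329 with median-of-ratios scaling, 1733 and 1810 with reads at the same total, 11371 and 136 with unscaled reads, 1461 and 346 in peaks above the median density, 420 and 307 among peaks called in both, and 717 and 156 at a fold of 2. Lower peaks were 80.8% of those past either threshold, but 69.2% with densities at the same total, 60.7% with median-of-ratios scaling and 48.9% with reads at the same total. The distal minus promoter median (-0.15), compared after seeing the data, was -0.15 with a pseudocount of 0.1, -0.031 with reads at the same total, -0.016 with unscaled reads and -0.074 in peaks called in both. The median of ratios and the equal totals shift every peak alike, while the use of reads also removes the fitted slope. Of 258 alternative values for the 18 peaks and 74 genes that the naming rule selects (genes with under 5 peaks added after seeing the data), 228 lay within the counting interval of the summed reads. A sign changed for 2 peaks, chr17:40154106-40157586 (1.09, and -0.017 with reads at the same total) and chr17:40158984-40159677 (0.67 and -0.14), and for 12 genes whose intervals over all their windows included 0, among them Thbs2 (-0.080, and 0.094 with reads at the same total), Enah (-0.061 and 0.079) and Smad3 (-0.020 and 0.084). Another of the 12, Tbx18, went from -0.10 to 0.048, but over 14 separate windows it was -0.21 (-0.38 to -0.049). Without replicates, the spread between cultures is unknown. No paired analysis was possible because there is 1 library per condition. Motifs were not run for lack of a genome of the table's build.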
